A study of Mus musculus with 5 samples.

Results

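The 10 genes described here regulate whether a cell lives or dies by apoptosis: *Daxx*, *Ccar1*, *Tnfrsf12a*, *Bcl2*, *Bcl2l1*, *Mcl1*, *Bax*, *Bak1*, *Bid* and *Trp53*. They were chosen by name, not by a measured value, and are 10 of the 13486 genes with tags in at least 1 of the 5 libraries. *Daxx*, *Ccar1* and *Tnfrsf12a* had been named from these same libraries as lower in the null, so their direction there is not independent evidence. The libraries were made by Tag-seq, which counts short cDNA tags next to NlaIII sites, from hearts of mouse embryos at embryonic day 10.5 (Theiler stage 17). Wild-type C57BL/6 embryos gave the atrioventricular canal (AVC), the outflow tract (OFT), the atria and the ventricles. Embryos of the ICR strain with a *Twist1* knockout gave an AVC library, called the null. Each library pooled tissue of at least 3 litters, and each condition has 1 library, so genotype, strain and number of embryos in the null cannot be told apart.

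In apoptosis through mitochondria, BAX and BAK1 open pores in the outer membrane, the survival proteins BCL2, BCL2L1 (BCL-XL) and MCL1 hold them in check, and BH3-only proteins such as BID set them free. Death receptors on the cell surface reach the same pathway through caspases that cut BID, and p53, encoded by *Trp53*, switches on several of its genes after damage. Cell death of this kind accompanies the remodelling of the cushions and of the outflow tract in the embryonic heart.

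A level is given in TPM, the tags of a gene per 1000000 tags of its file. The files held 4223810 to 12977237 tags, and the null was the deepest. They list a tag type, that is 1 distinct tag sequence, only with more than 5 tags, so the least level that could be listed was 0.462 TPM in the null and 0.988 to 1.42 TPM in the others. The genes are therefore read from a few sequences each. The leading tag of each gene, the one with the most tags over the 5 libraries, is shown so that the sequence behind each value can be seen. It held under 50% of the tags of *Bcl2* in the AVC (40.6%), the OFT (32.9%) and the null (30.9%) and of *Mcl1* in the atria (47.9%) and the ventricles (29.1%). The tags are printed 5′ to 3′ on the strand of their gene, with the NlaIII site in lower case and the 17 bases that the files hold in capitals.
*Daxx*: catgCTCCCCGTGCTCCCTGC
*Ccar1*: catgCTTGACTTTAGTAGTAT
*Tnfrsf12a*: catgGACTGCGCTTCTTGTCC
*Bcl2*: catgTAAAACATTATCTTGTA
*Bcl2l1*: catgACTGAGGGACCAATGGG
*Mcl1*: catgGTGCTATTCACTGGGTT
*Bax*: catgGCAGACAGTGACCATCT
*Bak1*: catgACCTACTTCACCCCCAC
*Bid*: catgACCTTTGGGTGAGTATA
*Trp53*: catgCTACAGAGGAGTCTGGA

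By their match to GENCODE M21 transcripts (GRCm38), 7 of these 10 tags lie at the NlaIII site nearest the 3′ end of their transcript. The *Daxx* tag is in the 3′ UTR at chr17:33915410-33915430 (+), the *Ccar1* tag in the 3′ UTR at chr10:62744662-62744682 (-), and the *Tnfrsf12a* tag in the coding part at chr17:23676551-23676571 (-). The *Bcl2l1* tag is in the 3′ UTR at chr2:152781370-152781390 (-), the *Bax* tag in the coding part at chr7:45461915-45461935 (-), the *Bak1* tag in the 3′ UTR at chr17:27020416-27020436 (-), and the *Trp53* tag in the coding part at chr11:69590722-69590742 (+). The leading tags of the other 3 genes are in the 3′ UTR at inner sites, counted from the 3′ end: site 20 for *Bcl2* at chr1:106541834-106541854 (-), site 7 for *Mcl1* at chr3:95661857-95661877 (+) and site 3 for *Bid* at chr6:120893230-120893250 (-). Of 115 tags that the transcripts of the 10 genes could give, 44 were listed in at least 1 library. The leading tag of *Trp53* also matches a transcript of the pseudogene *Trp53-ps*, so the level of *Trp53* is uncertain.

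*Twist1*, the gene targeted in the null, was at 918 TPM in the AVC, 299 TPM in the OFT, 63.4 TPM in the atria, 55.9 TPM in the ventricles and 4.55 TPM in the null. Which part of the gene the knockout removes is not given in the sources used here. The libraries also differed in the levels of cell type markers. The summed level of 6 cushion mesenchyme markers other than *Twist1* was 2708 TPM in the AVC, 3485 TPM in the OFT, 204 TPM in the atria, 198 TPM in the ventricles and 676 TPM in the null, with all 6 listed in each library. Haemoglobin tags made up 0.367% of the AVC, 0.433% of the OFT, 22.0% of the atria, 4.75% of the ventricles and 3.05% of the null. All 8 cardiomyocyte markers were listed in every library. Their summed level was 20344.9 TPM in the AVC, 22559.2 TPM in the OFT, 7367.8 TPM in the atria, 21674.5 TPM in the ventricles and 17615.9 TPM in the null. In pooled tissue, fewer cells of a type and less RNA per cell cannot be told apart.

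**Figure D1:**
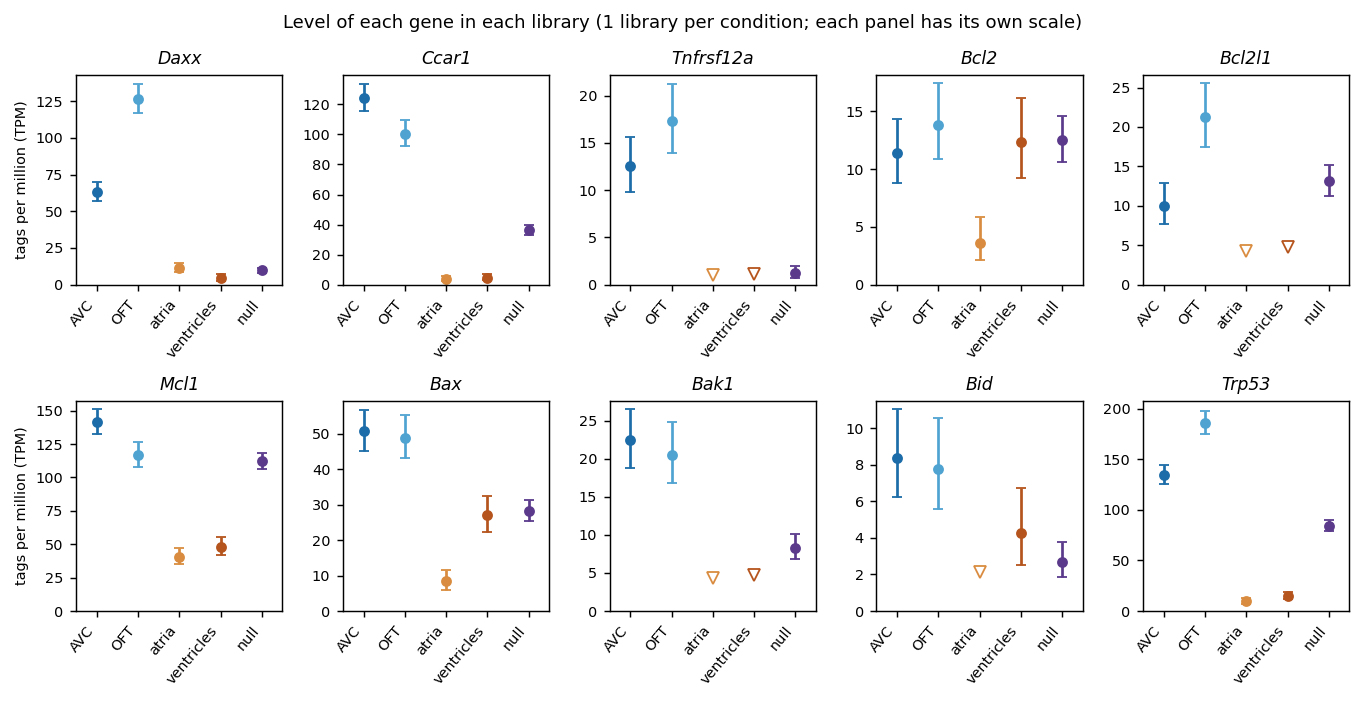
Level of each gene in the 5 libraries, in TPM on the vertical axis, with a scale of its own for each gene. Points are 1 library each, bars are 95% Poisson intervals of the tag count (counting error only), and open triangles mark the most that tags under the listing limit could add where a gene was not listed. All 10 genes were listed in the AVC, the OFT and the null, 6 in the atria and 7 in the ventricles.

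*Tnfrsf12a* encodes FN14, the receptor of the cytokine TWEAK and the only cell surface receptor among the 10 genes. It was at 12.5 TPM in the AVC, 17.3 TPM in the OFT and 1.23 TPM in the null, and was not listed in the atria or the ventricles. The intervals of the AVC (9.86 to 15.7 TPM) and the OFT (13.9 to 21.2 TPM) overlapped, and the null (0.705 to 2.00 TPM) lay below both. A chamber level of up to 1.07 TPM in the atria and 1.18 TPM in the ventricles would have stayed under the listing limit. All of these tags were of 1 type. The TWEAK gene *Tnfsf12*, named here after its values were seen, was listed in the null alone, at 0.539 TPM.

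*Bid* encodes the BH3-only protein that links death receptors to mitochondria. It was at 8.39 TPM in the AVC, 7.78 TPM in the OFT, 4.26 TPM in the ventricles and 2.70 TPM in the null, and was not listed in the atria. These levels rest on 51, 41, 18 and 35 tags. The intervals of the ventricles (2.53 to 6.74 TPM) and the null (1.88 to 3.75 TPM) overlapped. No tag of *Bid* came from its 2 sites nearest the 3′ end.

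Of the pore-forming effectors, *Bax* was listed in both chambers and *Bak1* in neither. *Bax* was at 50.7 TPM in the AVC, 48.8 TPM in the OFT, 8.36 TPM in the atria, 27.0 TPM in the ventricles and 28.3 TPM in the null. Its null and ventricle levels were close, with intervals of 25.5 to 31.3 and 22.3 to 32.4 TPM. *Bak1* was at 22.4 TPM in the AVC, 20.5 TPM in the OFT and 8.32 TPM in the null, and was not listed in the chambers. Because 4 tag types of *Bak1* are known from the other libraries, up to 4.29 TPM in the atria and 4.74 TPM in the ventricles could have gone unlisted.

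The survival genes followed different orders over the libraries. *Bcl2* was at 11.4 TPM in the AVC, 13.9 TPM in the OFT, 3.64 TPM in the atria, 12.3 TPM in the ventricles and 12.5 TPM in the null, so that the intervals of neighbouring libraries in the order of the levels overlapped for all but the atria. These intervals leave out tags under the listing limit, which could add up to 8.57 TPM of *Bcl2* in the atria and 8.29 TPM in the ventricles. *Bcl2l1* was at 10.04 TPM in the AVC, 21.3 TPM in the OFT and 13.1 TPM in the null, and was not listed in the chambers. *Mcl1* was at 142 TPM in the AVC, 117 TPM in the OFT, 40.7 TPM in the atria, 48.1 TPM in the ventricles and 112 TPM in the null. The *Mcl1* intervals of the OFT (108 to 127 TPM) and the null (107 to 118 TPM) overlapped, as did those of the chambers. Only *Bcl2* and *Bcl2l1* were above the AVC in the null.

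*Trp53* was at 135 TPM in the AVC, 186 TPM in the OFT, 9.64 TPM in the atria, 14.9 TPM in the ventricles and 84.4 TPM in the null. The null stood between the valve-forming regions and the chambers, and only the 2 chamber intervals overlapped. *Daxx* encodes a histone chaperone and transcriptional corepressor that was first found as a partner of the death receptor FAS. It was at 63.0 TPM in the AVC, 126 TPM in the OFT, 11.6 TPM in the atria, 4.50 TPM in the ventricles and 9.79 TPM in the null. The intervals of the null (8.16 to 11.6 TPM) and the atria (8.69 to 15.1 TPM) overlapped. *Ccar1*, which encodes a nuclear coactivator named for its part in cell division and apoptosis, was at 124 TPM in the AVC, 100.4 TPM in the OFT, 3.86 TPM in the atria, 4.74 TPM in the ventricles and 36.5 TPM in the null. The *Ccar1* level in the null lay below both valve-forming regions and above both chambers, with no overlap.

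Likeness between genes was measured as the root mean square difference of their log2(TPM + 1) profiles over the 5 libraries, each centred on its own mean, and is a description only. A gene not listed in a library entered with no tags there, so values of *Bak1*, *Bcl2l1*, *Tnfrsf12a* and *Bid* depend on the listing limit. The smallest value was 0.17, between *Ccar1* and *Bak1*. Up to 4.29 TPM of *Bak1* in the atria and 4.74 TPM in the ventricles could have gone unlisted, which would change it. The gene nearest to *Bax* was *Bid*, at 0.33, and the gene nearest to *Bcl2* was *Bax*, at 0.42. *Bcl2* was the gene farthest from 6 of the other 9, with 1.74 against *Bak1*.

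The first comparison asked which genes were higher in the valve-forming regions than in the chambers, taken as the summed atria and ventricles. *Ccar1* and *Trp53* were higher in the AVC by 29.0-fold (counting interval 20.96 to 41.4) and 11.1-fold (9.07 to 13.7), and *Daxx* by 7.68-fold (5.96 to 10.002). *Tnfrsf12a*, *Bak1* and *Bcl2l1*, which had no tags in the chambers, were at least 11.1-fold, 4.98-fold and 2.23-fold higher. These bounds allow each chamber library 5 tags for every tag type of the gene listed in any library, the same limit as for the unlisted levels above. *Bid* was 4.15-fold, *Mcl1* 3.21-fold and *Bax* 2.95-fold higher. *Bcl2* was 1.46-fold higher (1.03 to 2.07) and was not called.

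The ratios of *Trp53* and *Ccar1* move with the way tags are counted. All chamber tags of *Trp53* were of the type shared with the pseudogene. With tags that match several genes in the full transcript set left out, *Trp53* was not listed in the chambers. Its log2 ratio, then a lower bound, went from 3.47 to 0.65 in the AVC and from 3.94 to 1.81 in the OFT. It was called in both, with the chambers taken as having no tags. With 5 tags set for each missing tag type, *Ccar1* went from 4.86 to 3.65 in the AVC and from 4.55 to 3.94 in the OFT, called in both.

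Differences were tested with the two-sided exact test of edgeR at a fixed dispersion of 0.12, and a gene counts as called when its unadjusted p is under 0.05. With 1 library a condition, the dispersion is assumed and each test compares libraries, not conditions. An unlisted gene enters the test as having no tags, so its p takes no account of the listing limit. In the AVC 9 of the 10 genes were called higher and 0 lower, beside 43.4% of all 12503 genes higher and 8.12% lower. With p adjusted over all genes 7 of 10 were called higher, where the share of all genes was 35.6%. The adjusted p were 8.92e-07 for *Ccar1*, 1.62e-04 for *Trp53*, 0.0564 for *Mcl1* and 0.0792 for *Bax*.

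Scaling by file totals leaves the median of all genes tested 0.87 above 0 on the log2 scale, with unlisted genes at their bound, and TMM scaling, which sets the bulk of genes level, lowers every log2 ratio by 0.95. The share of higher among all calls then went from 84.2% to 59.4%. With TMM 6 of the 10 genes were called higher, and 25.6% of all genes. These were *Daxx*, *Ccar1*, *Tnfrsf12a*, *Bcl2l1*, *Bak1* and *Trp53*, with log2 ratios of 1.99, 3.91, at least 2.52, at least 0.21, at least 1.36 and 2.52. *Mcl1*, *Bax* and *Bid* were then at 0.73, 0.61 and 1.10, not called, and *Bcl2* turned to -0.40. The median log2 ratio of the 10 genes was 2.18 with file totals and 1.23 with TMM, with the unlisted genes at their bounds. The marker sums of cushion mesenchyme and the haemoglobin share moved with the same libraries, and their part in these ratios was not tested.

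The OFT was compared with the same chamber libraries, so it is no second test of them. Here 8 of 10 genes were called higher and 0 lower, beside 40.6% and 8.88% of all 12451 genes, and *Bcl2* and *Mcl1* were not called. *Ccar1* was 23.5-fold, *Daxx* 15.4-fold and *Trp53* 15.3-fold higher. *Bcl2l1*, *Tnfrsf12a* and *Bak1* were at least 4.73-fold, 15.4-fold and 4.56-fold higher. *Bid* was 3.84-fold, *Bax* 2.83-fold, *Mcl1* 2.65-fold and *Bcl2* 1.79-fold higher, with p = 0.0571 for *Mcl1* and p = 0.282 for *Bcl2* by the exact test. The call was kept by 6 genes with adjusted p, beside 34.1% of all genes, and by 6 with TMM, beside 26.2%. The median of all genes was at 0.76, that of the 10 genes at 2.21, TMM lowered the ratios by 0.86, and *Bcl2* was then at -0.0201.

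**Figure D2:**
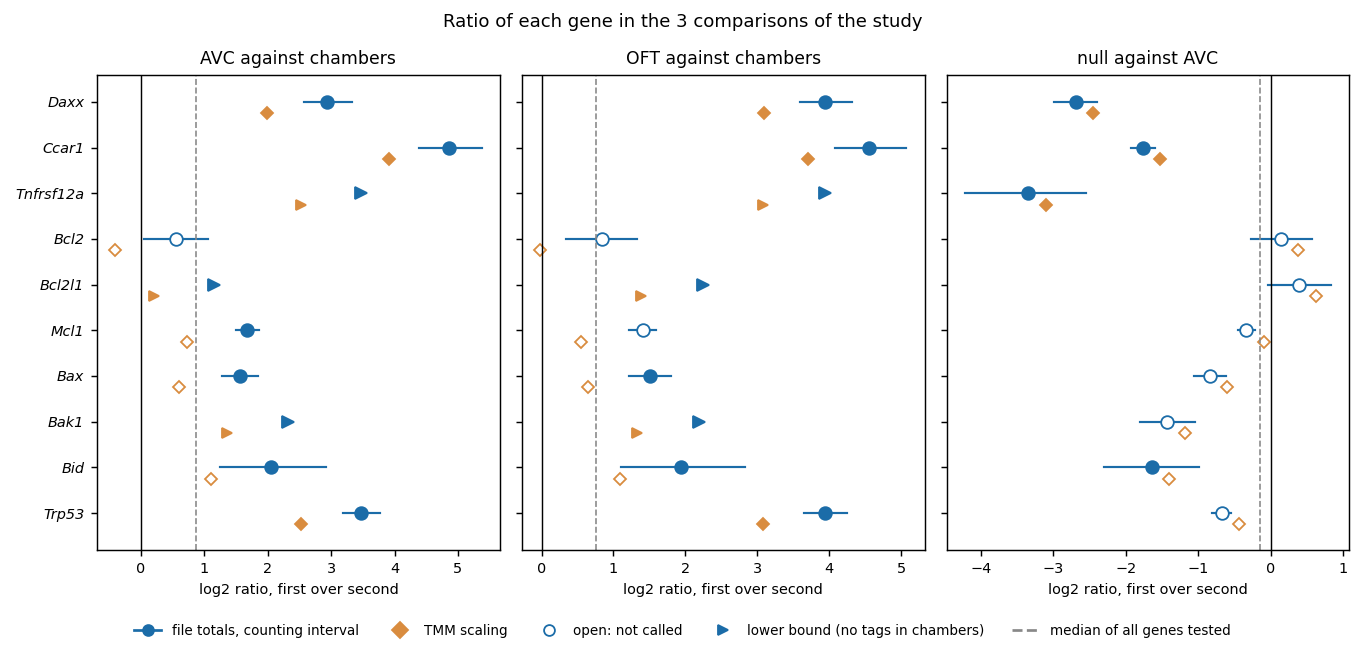
Log2 ratio of each gene on the horizontal axis in the AVC and OFT against the summed chambers and in the null against the AVC. Circles use file totals with 95% counting intervals, diamonds use TMM, triangles are lower bounds and filled marks are called. The dashed line is the median of all genes with file totals, and does not apply to the TMM marks. *Bcl2* is open in all 3 panels, and *Daxx*, *Ccar1* and *Tnfrsf12a* are filled under both scalings.

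Between the OFT and the AVC 0 of the 10 genes were called, where 5.22% of all 12541 genes were called higher and 7.35% lower. *Bcl2l1* was 2.12-fold higher in the OFT (counting interval 1.54 to 2.94, exact p = 0.165) and *Daxx* 2.01-fold (1.77 to 2.28, exact p = 0.171). Their intervals lie above 1, but these cover counting error only, and neither gene was called at the assumed dispersion. *Trp53* and *Tnfrsf12a* were both 1.38-fold higher in the OFT. The other 6 genes had log2 ratios between -0.31 and 0.29.

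The chambers were compared with each other because the first comparisons sum them. Of the 7 genes with tags in either, 3 were called higher in the ventricles and 0 lower, beside 11.1% and 9.03% of all 10705 genes. *Bcl2* was 3.38-fold higher (1.92 to 6.23, exact p = 0.0386), *Bax* 3.23-fold (2.23 to 4.77, exact p = 0.0322) and *Bid* at least 1.99-fold (exact p = 6.35e-04). Only *Bid* was called with TMM, beside 9.16% of all genes, or with adjusted p, beside 3.47%. *Bid* had 18 tags in the ventricles, and the test took the atria as having none. With 5 tags set for each missing tag type *Bid* was not called (exact p = 0.0784). *Bcl2* was not called with this fill either, and *Bax* was. Up to 8.57 TPM of *Bcl2* in the atria could have gone unlisted, beside a listed level of 3.64 TPM. *Daxx* was 2.57-fold lower in the ventricles (1.501 to 4.60), which was not called (exact p = 0.112). The atria held the larger share of haemoglobin tags, and its part in these differences was not tested. Against the atria alone the AVC had 9 genes called higher, beside 45.4% of all genes, and the OFT 10, beside 43.5%. Against the ventricles alone the counts were 7, beside 40.2%, and 6, beside 37.8%.

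The comparison of the null with the wild-type AVC asked which genes change without *Twist1*. *Tnfrsf12a* was 10.1-fold lower in the null (counting interval 5.86 to 18.6), *Daxx* 6.44-fold (5.26 to 7.94), *Ccar1* 3.40-fold (3.03 to 3.82) and *Bid* 3.11-fold (1.99 to 4.93). These 4 of the 10 genes were called lower and 0 higher, beside 12.7% of all 12963 genes lower and 11.9% higher. The exact p were 1.16e-04 for *Tnfrsf12a*, 5.48e-04 for *Daxx*, 0.0178 for *Ccar1* and 0.0412 for *Bid*. Adjusted over all genes, p was 0.00632 for *Tnfrsf12a*, 0.0159 for *Daxx*, 0.109 for *Ccar1* and 0.179 for *Bid*, so that 2 of 10 kept the call, beside 3.93% of all genes. A tag type listed in the null alone, which matches no transcript and lies 1 base from the *Bid* tag, held 19 tags. With it added, a choice made after seeing the data, *Bid* was at -1.01 on the log2 scale and was not called.

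The other 6 genes were not called. *Bak1* was 2.69-fold lower (2.07 to 3.50, exact p = 0.0593), *Bax* 1.79-fold (1.54 to 2.09, exact p = 0.252), *Trp53* 1.60-fold (1.46 to 1.75, exact p = 0.351) and *Mcl1* 1.26-fold (1.16 to 1.38, exact p = 0.641). *Bcl2l1* was 1.30-fold higher (0.968 to 1.78, exact p = 0.622) and *Bcl2* 1.10-fold higher (0.824 to 1.48, exact p = 0.869). The ratios of these 2 survival genes include no change within counting error. The null is the deepest library and lists 7 tag types of *Bcl2* and 4 of *Bcl2l1* where the AVC lists 4 and 1. With 5 tags set for each missing tag type *Bcl2* was at -0.19 on the log2 scale.

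File totals leave the median of all genes at -0.15 in this comparison, and TMM raises every log2 ratio by 0.24. The share of higher among all calls went from 48.3% to 61.4% with it. With TMM *Daxx*, *Ccar1* and *Tnfrsf12a* were called lower, at -2.45, -1.53 and -3.10, beside 9.36% of all genes, and *Bid* was not (exact p = 0.0912). The median of the 10 genes was -1.13 with file totals and -0.90 with TMM. The summed cushion mesenchyme markers, given above, were lower in the null as well, and their part in these ratios was not tested.

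Because each gene is read from few tags, the comparison was repeated on single tag types. The tag of *Daxx* fell from 373 tags in the AVC to 118 in the null, which is 6.75-fold in TPM, and made up 97.4% of the gene's tags in the AVC and 92.9% in the null. *Ccar1* had a second abundant tag at its coding site 6, at chr10:62756523-62756543 (-), shown with further tags of *Mcl1*, *Bcl2* and *Trp53* whose counts are given beside those of the leading tags.
*Ccar1*, site 6: catgTCTTTGAGTGTCCTTTT
*Mcl1*, site 1: catgTACATTCTATCTGGGTG
*Mcl1*, site 8: catgGAGAAGGACTTCTAGAA
*Bcl2*, site 1: catgTCTGTCTGAAAAAATAA
*Trp53*, site 2: catgAACCGCCGACCTATCCT

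The added tags of *Mcl1* lie in its 3′ UTR at chr3:95663016-95663036 (+) and chr3:95661079-95661099 (+), that of *Bcl2* in its 3′ UTR at chr1:106538199-106538219 (-) and that of *Trp53* in its coding part at chr11:69589203-69589223 (+). The *Ccar1* tag at site 6 went from 184 tags to 24, 16.4-fold lower in TPM, while the leading tag at site 1 went from 531 to 438, which is 2.59-fold lower, with counting intervals apart. On the leading tag alone the gene was not called. *Mcl1* showed different directions at its sites. Its leading tag at site 7 went from 543 to 755 tags (1.54-fold lower in TPM), its tag at site 1 from 274 to 509 (1.15-fold lower) and its tag at site 8 from 38 to 165 (2.03-fold higher). The leading tag of *Trp53*, which the pseudogene shares, went from 776 to 1081 tags (1.53-fold lower), and its tag at site 2 went from 36 to 14 (5.49-fold lower). With tags that match several genes in the full transcript set left out, *Trp53* was at -2.71 and called lower (exact p = 0.00230). The leading tag of *Bcl2l1* was 1.03-fold higher, with 61 and 134 tags. The *Bcl2* tag at site 1 was 1.10-fold higher, with 26 and 61 tags, and the leading *Bcl2* tag 1.196-fold lower, with 28 and 50 tags, and both intervals include 1 (0.684 to 1.81 and 0.516 to 1.38, null over AVC).

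**Figure D3:**
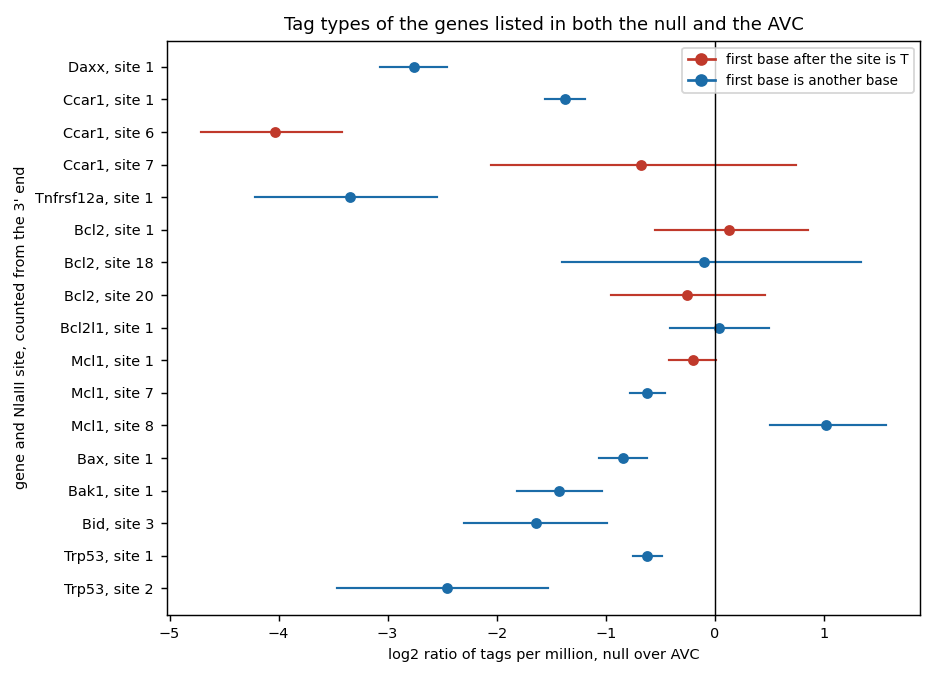
Log2 ratio of TPM, null over AVC, for the 17 tag types of the genes that were listed in both libraries, with 95% counting intervals. Rows are the gene and its NlaIII site counted from the 3′ end, and red marks tags whose first base after the site is T. The *Ccar1* tag at site 6 lies farthest to the left, and 14 of the 17 points lie below 0.

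Tags whose first base after the site is T made up 13.6% of the AVC, 15.0% of the OFT, 32.1% of the atria, 22.2% of the ventricles and 32.4% of the null. Across 1708 genes with at least 100 tags of each kind, T tags were higher relative to the other tags of the same gene by a median of 1.42 (log2) in the null against the AVC, and lower by 0.92 over 739 genes in the AVC against the chambers. The *Ccar1* tag at site 6 starts with T and went the other way. With T tags left out *Daxx* and *Tnfrsf12a* stayed called lower in the null, and *Ccar1* at -1.10 and *Bid* at -1.29 did not. No listed tag of *Bid* starts with T, so its ratio moved only with the library totals.

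Survival and effector genes were also set against each other inside each library, since such a ratio does not depend on how libraries are scaled. Summed tags of *Bcl2*, *Bcl2l1* and *Mcl1* over those of *Bax* and *Bak1* came to 2.23 for the AVC (interval 1.99 to 2.50), 2.19 for the OFT (1.94 to 2.49), 5.31 for the atria (3.76 to 7.68), 2.24 for the ventricles (1.79 to 2.81) and 3.76 for the null (3.40 to 4.17). The genes differ in the NlaIII sites they are read from, so the ratio is read between libraries only. The null lay above the AVC with intervals apart. *Bak1* was not listed in the chambers, so their effector tags were all of *Bax*. With up to 5 tags allowed for each unlisted tag type, the ratio could lie between 3.23 and 7.62 in the atria. This range was 1.83 to 2.98 in the ventricles and 2.14 to 2.35 in the OFT. It was 2.16 to 2.38 in the AVC and 3.65 to 3.82 in the null. Most survival tags were of *Mcl1*, with 1456 of 1788 in the null and 861 of 991 in the AVC.

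With tags of the site nearest the 3′ end alone, the ratio was 0.830 for the AVC, 1.03 for the OFT, 2.54 for the atria, 1.35 for the ventricles and 1.504 for the null. With T tags left out it was 1.49, 1.45, 2.49, 0.596 and 2.40 in the same order. The null stayed above the AVC, with intervals apart, under both. The intervals cover counting error only, and with 1 library a condition there is no test of the difference.

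**Figure D4:**
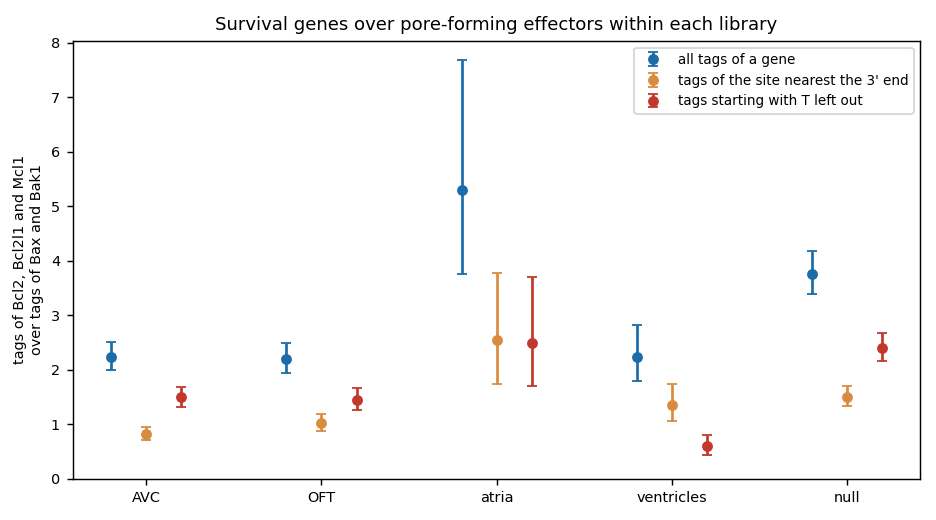
Tags of the survival genes *Bcl2*, *Bcl2l1* and *Mcl1* over tags of the effectors *Bax* and *Bak1* in each library, with 95% intervals from counting. The intervals take no account of tags under the listing limit, and *Bak1* was not listed in the chambers. Colours show all tags, tags of the site nearest the 3′ end and tags that do not start with T. The null lies above the AVC in each colour, and the ventricles move from 2.24 to 0.596 when T tags are left out.

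The wider pathway was described from lists of 66 other genes. In the null against the AVC 61 of them could be tested, and 5 were called higher and 8 lower, beside 11.9% and 12.7% of all genes. The median log2 ratio was -0.12, beside -0.15 for all genes. The smaller lists that follow are read beside the same shares, which were 14.9% and 9.36% with TMM. The other BCL2 family genes had 2 of 9 called higher and 0 lower, with 5 higher under TMM. *Pmaip1*, 1 of these 2 and named after its values were seen, was at 0.848 TPM in the null. It was unlisted in the AVC, where the least level that could be listed was 0.988 TPM. *Bbc3*, the p53 target PUMA, rose from 13.7 TPM in the AVC to 44.6 TPM in the null, 3.27-fold (exact p = 0.0240, adjusted p = 0.132). Among caspases and apoptosome genes 2 of 14 were called higher and 3 lower, and *Htra2*, a mitochondrial protease, rose 9.07-fold from 6.25 to 56.7 TPM (adjusted p = 0.00516). Among inhibitor of apoptosis genes 1 of 5 was called lower, which was *Birc2*, at 30.0 TPM in the AVC and 5.86 TPM in the null (5.12-fold, adjusted p = 0.0337).

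Of the other genes on the death receptor list, which also holds ligands and adaptors, 1 of 10 was called lower and 0 higher. Of 9 partners of DAXX and CCAR1 0 were called, with a median log2 ratio of -0.84. Of the other p53 pathway genes 1 of 14 was called higher and 3 lower, but with TMM 1 and 0. *Trp53inp1*, a p53-induced gene, rose 4.48-fold from 8.39 to 37.6 TPM (exact p = 0.00550, adjusted p = 0.0559).

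In the AVC against the chambers 29 of 58 other pathway genes were called higher and 5 lower, beside 43.4% and 8.12% of all genes, and 13 and 10 with TMM, beside 25.6% and 17.5%. The counts were 5 higher and 1 lower of 8 in the BCL2 family and 4 and 1 of 14 for caspases and apoptosome. They were 3 and 1 of 5 for inhibitors of apoptosis and 4 and 1 of 8 for the death receptor list. The partners had 4 and 1 of 9, and the p53 pathway 9 and 0 of 14. For the partners this became 0 higher and 3 lower with TMM. *Birc2* was listed in the ventricles at 3.55 TPM and not in the atria, which put the AVC 17.8-fold higher (exact p = 2.62e-06). *Hipk1*, a kinase that phosphorylates DAXX, was at 63.5 TPM against 13.7 and 13.3 TPM (4.71-fold, exact p = 0.00359, but p = 0.0857 with TMM). *Usp7*, the deubiquitinase of MDM2 and p53, was at 12.8 TPM and listed in neither chamber (at least 1.43-fold, exact p = 2.20e-08). This p takes the chambers as having no tags, which the listing limit does not show.

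TWIST1 is a bHLH factor that binds E-boxes, so the promoter windows of the 10 genes in RefSeq (GRCm38.p6, 300 bases around each start) were searched for CANNTG, which reads the same on both strands. Of 14 windows 11 held at least 1 match, and 72.3% of all 32851 windows did. The *Bax* window held 2, and 39.6% of all windows held at least as many. Those of *Bcl2*, *Bak1* and *Bid* held 0, and every window of the other 6 genes held 1. The letters describe the windows and say nothing of binding.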

How the data were processed

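The 5 libraries of mouse embryonic heart were measured by Tag-seq, with 1 per condition. The deposited files hold tag counts. The authors cut cDNA with NlaIII, sequenced the adjoining bases and kept tag types with more than 5 tags, and the smallest count in each file was 6. Aligned positions were not used. mm9 is named in the submitters' processing notes, and positions here are from GENCODE M21 (GRCm38).

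Tags were matched to every NlaIII site of 33363 GENCODE transcripts linked to RefSeq, with 20 adenines added at the transcript end. Tags that matched transcripts of a single gene in sense (308949 of 315529 possible tags) were counted for it and added up per gene. Between 70.7% and 74.5% of tags matched 1 gene, and 9721 to 12608 genes were found per library. Uniqueness in the genome was not checked. TPM and ratios were computed from file totals. PCR copies are not independent molecules, so all 95% intervals (Poisson or exact binomial) cover counting error only.

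Genes were compared in R 4.3.3 with the exact test (two-sided) that edgeR 4.0.16 offers, at dispersion 0.12, as in the study's methods, with Benjamini-Hochberg adjustment over all genes tested. Alternatives changed the scaling (TMM, DESeq2 1.42.0 size factors, all-tag totals, totals without haemoglobin), the dispersion (0.05 and 0.4), the limits on tags (more than 10 per type or at least 50 per gene), the sites and transcripts used, near-copies of tags at least 100 times as abundant, tags starting with T, depth (thinned to 4223810 tags) and the fill for missing types. Summaries were made with pandas 2.3.3, numpy 2.4.6 and scipy 1.17.1 under Python 3.11.15, and figures with matplotlib 3.10.9. The exact test was first run on simulated counts, drawn at dispersion 0.12 and without the listing limit.

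All 10 genes were named with every value, and from each pathway list the gene of smallest exact p in the null and in the AVC comparison. Of the genes this rule names, 2 are not reported here. The genes and lists were chosen with earlier results of these data known. No paired analysis was possible because each condition has 1 library.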

Additional observations from a re-analysis of the deposited data

Results flagged for a closer look

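Antisense tags were listed for 9 of the 10 genes. They are given for the 4 genes for which a library held more than 20 and more than 10% of the sense tags. Antisense tags of *Mcl1* reached 30.9 TPM in the AVC, 29.0 TPM in the OFT, 10.9 TPM in the atria, 28.6 TPM in the ventricles and 29.2 TPM in the null. Antisense tags of *Ccar1* were at 23.4 TPM in the AVC, 32.3 TPM in the OFT and 4.24 TPM in the null. They were listed at a lower level in the atria and not listed in the ventricles. Antisense tags of *Bcl2* were at 1.15 TPM in the AVC, 3.99 TPM in the OFT and 3.08 TPM in the null. Those of *Daxx* were at 3.62 TPM in the AVC, 6.83 TPM in the OFT and 2.23 TPM in the null. Antisense tags of *Bcl2* and *Daxx* were not listed in the chambers. The tags carry strand, so these are counted apart from the sense values.

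Tags of *Ccar1* transcripts that are not linked to RefSeq were at 71.3 TPM in the AVC, 71.0 TPM in the OFT and 21.3 TPM in the null, where the atria held 4.07 TPM and the ventricles 2.60 TPM. They are given where a library held more than 20 of them and were not part of the *Ccar1* level.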

How the results depend on the processing

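Over all alternatives 6 to 9 of the 10 genes were called in the AVC against the chambers, 6 to 10 in the OFT and 1 to 5 in the null. The null count of 4 became 2 with all-tag totals, adjusted p, tags of the site nearest the 3′ end, or T tags left out (with or without TMM), and 1 at dispersion 0.4. The share of all genes called lower was 8.05%, 3.93%, 17.3%, 13.3% without T tags (10.7% with TMM too) and 2.36% in the same order, beside 12.7%. In the ventricles against the atria the count of 3 became 1 with TMM, DESeq2 size factors, all-tag totals, totals without haemoglobin, dispersion 0.4, adjusted p, T tags left out (with or without TMM) or filled missing types. The 1 gene left there was *Bid*, except with filled missing types, where it was *Bax*. In the OFT against the AVC dispersion 0.05 gave 2 calls. Over all genes, dispersion 0.4 and 0.05 moved the calls from 6442 to 2872 and 8179 in the AVC against the chambers, from 6162 to 2837 and 7925 in the OFT, and from 3187 to 812 and 5448 in the null. The range was 323 to 2573 around 1577 calls in the OFT against the AVC and 454 to 3408 around 2156 in the ventricles against the atria, lowest with at least 50 tags per gene.

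Every log2 ratio that changed direction belonged to a gene not called in that comparison. *Bcl2* against the chambers was at -0.40 (TMM), -0.44 (DESeq2), -0.55 (T tags left out, TMM) and -0.12 (ventricles alone) in the AVC, and at -0.0201 (TMM) and -0.0390 (DESeq2) in the OFT. In the null *Bcl2* was at -0.19 with filled types, and *Mcl1* at 0.0331 (all-tag totals) and 0.17 (T tags left out, TMM). In the OFT against the AVC all-tag totals gave 0.0513 for *Ccar1*, 0.0795 for *Mcl1*, 0.30 for *Bax*, 0.23 for *Bak1* and 0.25 for *Bid*, and *Bax* was at 0.0277 with TMM, 0.0283 with DESeq2 and 0.0436 with T tags left out and TMM. In the ventricles against the atria *Ccar1* was at -0.0261 (TMM), -0.0161 (DESeq2) and -0.11 (all transcripts), and *Mcl1* at -0.0827 (TMM), -0.0726 (DESeq2), -0.0484 (totals without haemoglobin), -0.68 (T tags left out) and -0.73 (with TMM too). The cause was not tested.

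The ratio of survival to effector tags moved with the sites used, to 0.830, 1.03, 2.54, 1.35 and 1.504 at the 3′ site and to 1.49, 1.45, 2.49, 0.596 and 2.40 without T tags in the AVC, OFT, atria, ventricles and null.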
